A study of Mus musculus with 12 samples.

Results

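Chemokine ligands are small secreted or membrane-tethered proteins that direct the movement of leukocytes, and they were measured here in brown adipose tissue of mice with and without the transcription factor Zbtb7b, at room temperature and after a short cold exposure. The ligands were taken as every gene whose annotated symbol begins with Ccl or Cxcl and a digit, plus Cx3cl1, Xcl1, Pf4 and Ppbp. A probe set (a group of array probes read as 1 value) was used only where it carried a single symbol, and for a gene with more than 1 the brightest over the 12 arrays was kept. The rule found 36 ligands among 22180 genes. It left out 7 chemokine symbols that occur only on probe sets shared by several symbols.

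The arrays came from 4 groups of 3. The groups were wild type (WT) at room temperature, Zbtb7b knockout (KO) at room temperature, WT in the cold and KO in the cold. All mice were male and, per the series' design text, 10 weeks old. Room temperature was 22 °C and the cold was 4 °C for 4 h. The strain, the extent of the deletion and the cells it reaches are not given in the sources used here. The titles speak of biological replicates and the description field of pools. The number of animals behind an array is therefore not known, and p-values here reflect only how far these samples spread. The description field also names liver and a knockout of a different gene. A brown adipocyte marker list had a mean log2 signal of 9.39 to 10.73 per array against 3.62 to 3.90 for a hepatocyte list, and Zbtb7b read 4.26 to 4.76 on the 6 WT arrays and 2.96 to 3.62 on the 6 KO arrays, so the values follow the titles. A skeletal muscle marker list ranged from 3.27 to 8.89 between arrays and was high on some arrays of every group. Array medians lay between 2.63 and 2.83, and the number of arrays, 3 per group, limits the precision.

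Chemokines bind G protein-coupled receptors on leukocytes. CC ligands such as Ccl2 draw monocytes, CXC ligands that carry a glutamate-leucine-arginine motif draw neutrophils, and Cxcl9, Cxcl10 and Cxcl11 are induced by interferon and draw T cells and natural killer cells through Cxcr3. Homing ligands such as Cxcl12 and Cxcl13 are made by stromal and other resident cells and place leukocytes within tissues. In adipose tissue the ligands come from macrophages, stromal and endothelial cells and from adipocytes themselves. All values below are log2 signals, a difference of 1 being a doubling of the signal. A difference was called where its adjusted p, from limma's moderated test over all genes, was under 0.05. In whole tissue, fewer cells of a type and less RNA per cell cannot be told apart. Levels of different ligands come from different probes and are not ranked against each other. Of the 36 ligands, 14 had a mean signal of at least 5 over the 12 arrays, and signals under 4 were taken as near the background. Where a group mean lay under 4 the difference is given on the log2 scale of the signal, without a fold, and is not a measure of the change in RNA.

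Cold exposure of WT mice raised 5 ligands (Ccl2, Ccl6, Ccl9, Ccl25 and Cxcl13) and lowered 2 (Cxcl12 and Ccl27a). These 7 of 36 ligands are 19.4%, beside 17.4% of all genes called in that comparison (9.39% higher and 7.98% lower), so the share was near the background. WT cold and room temperature arrays did not overlap for 17 ligands, 12 higher and 5 lower, beside 36.8% of all genes. In KO mice the cold raised 4 (Ccl6, Ccl9, Cxcl10 and Cxcl13) and lowered 2 (Cxcl9 and Ccl27a), which is 16.7% beside 19.2% of all genes (8.34% higher and 10.8% lower). The KO groups did not overlap for 10 ligands, 8 higher and 2 lower, beside 31.6% of all genes. The median difference over the ligands was 0.12 in WT and 0.24 in KO, beside -0.02 and 0.00 over all genes. With both genotypes averaged, 6 ligands rose and 2 fell, which is 22.2% beside 27.2% of all genes (12.9% higher and 14.3% lower). The averaged comparison added Cxcl14 to those that rose. The WT and KO cold differences share no arrays, but their tests are not independent, because both take the spread from the same fit over all 12 arrays. The averaged comparison is made of both. Without KO cold replicate 1 the KO count went from 6 to 10 and the averaged count from 8 to 13. On that array 12.3% of all genes had their highest signal and 14.0% their lowest, the largest shares of the 12 arrays. Its median of 2.83 was also the highest.

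**Figure D1:**
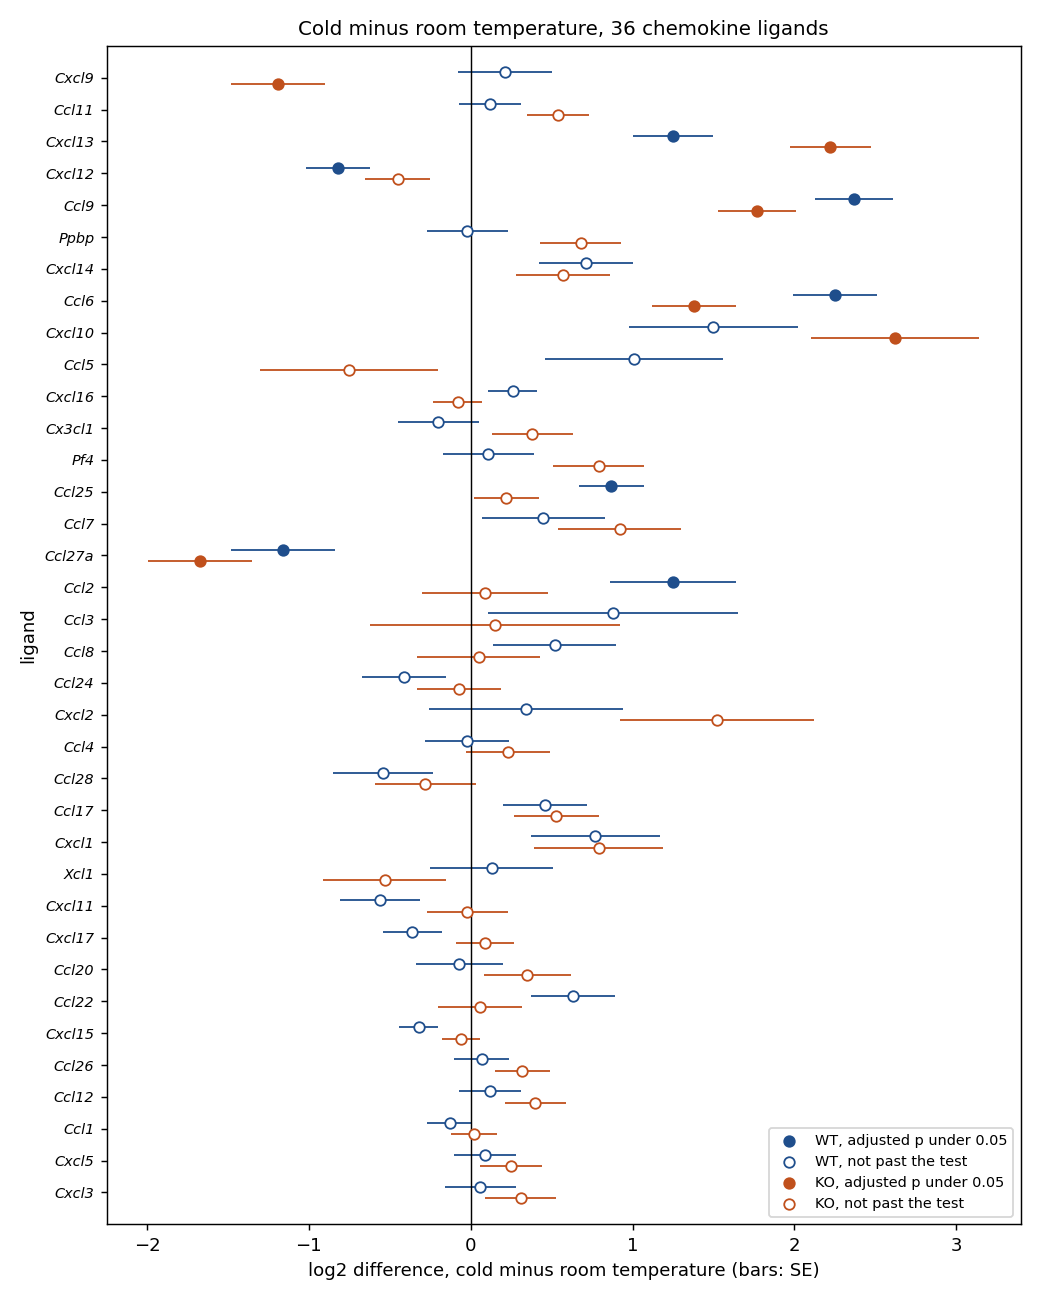
Log2 difference, cold minus room temperature, of each chemokine ligand in WT and in KO mice. Points are differences from the fit with 3 arrays per group, bars are standard errors and filled points passed at an adjusted p under 0.05. Ccl6, Ccl9, Cxcl10 and Cxcl13 were above 1 in both genotypes, Cxcl10 passing only in KO, and Cxcl9 lay at 0.21 in WT and -1.19 in KO.

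In WT the ligands with the smallest adjusted p for cold were Ccl6 and Ccl9, a pair of rodent CC ligands of Ccr1 that are made largely by macrophages and other myeloid cells. Their genes lie side by side on chromosome 11 with Ccl5, Ccl3 and Ccl4 as the flanking chemokine genes in the RefSeq gene order. The 250 bases before each start, printed from the gene's own 5′ to 3′ direction out of RefSeq's GRCm38.p6 table, are shown because these ligands moved together. Capitals mark TATAAA and the NF-kappaB consensus on either strand, and capitals of overlapping matches run together.
Ccl6, chr11:83593088-83593337, minus strand: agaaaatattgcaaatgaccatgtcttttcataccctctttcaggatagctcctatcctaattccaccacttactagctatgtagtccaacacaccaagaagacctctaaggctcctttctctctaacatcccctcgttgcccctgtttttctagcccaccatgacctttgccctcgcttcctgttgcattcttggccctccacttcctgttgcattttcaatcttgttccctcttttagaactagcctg
Ccl9, chr11:83578637-83578886, minus strand: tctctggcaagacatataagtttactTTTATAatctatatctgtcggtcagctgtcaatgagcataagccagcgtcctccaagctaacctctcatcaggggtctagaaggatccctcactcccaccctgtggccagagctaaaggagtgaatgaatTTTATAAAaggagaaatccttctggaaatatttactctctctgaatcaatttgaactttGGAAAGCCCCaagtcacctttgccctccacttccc
The Ccl6 window held none of the motifs searched, whereas the Ccl9 window held 3 TATAAA matches and 1 NF-kappaB match on the reverse strand from base -35 to -26. The longest run shared by the windows was 13 bases, gccctccacttcc. These are matches of letters in a short window and name no factor.

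Ccl6 read 4.89, 4.28 and 4.87 on the WT room temperature arrays and 6.73, 7.13 and 6.93 in the WT cold, 5.76, 6.17 and 5.62 in KO at room temperature and 6.75, 7.10 and 7.83 in the KO cold. Within each genotype every cold array was above every room temperature array. The difference was 2.25 ± 0.26 (SE, 3 arrays per group) in WT, or 4.76-fold (limma adjusted p = 0.000162), and 1.38 ± 0.26 in KO, or 2.6-fold (adjusted p = 0.00303). Ccl9 read 6.38, 5.76 and 6.18 in WT at room temperature and 8.29, 8.74 and 8.39 in the WT cold. In KO it read 6.82, 7.25 and 7.53 at room temperature and 8.51, 9.08 and 9.33 in the cold. Cold and room temperature again did not overlap in either genotype, with differences of 2.37 ± 0.24 in WT, or 5.16-fold (adjusted p = 7.7e-05), and 1.77 ± 0.24 in KO, or 3.42-fold (adjusted p = 0.000378).

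At room temperature both ligands were also higher on every KO array than on every WT array, without passing the test. The differences were 1.17 ± 0.26 for Ccl6 (adjusted p = 0.0843) and 1.10 ± 0.24 for Ccl9 (adjusted p = 0.0793). Ccl6 passed without KO cold replicate 3 (adjusted p = 0.033) and Ccl9 without KO cold replicate 1 (0.0443). In the cold the genotypes overlapped for both, at 0.30 for Ccl6 and 0.50 for Ccl9. Over both temperatures Ccl9 was higher in KO by 0.80 ± 0.17 (adjusted p = 0.0405). That call held only without KO room temperature replicate 1 or KO cold replicate 1 among the 12 fits that each left out 1 array, and the other 10 gave adjusted p-values of 0.0572 to 0.113.

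A list of 15 macrophage and monocyte markers was read beside these ligands. Its mean signal was 5.46 to 5.73 in WT at room temperature, 6.12 to 6.45 in KO at room temperature, 6.02 to 6.36 in the WT cold and 6.05 to 6.73 in the KO cold. The WT groups did not overlap in this mean, nor did WT and KO at room temperature, while the KO groups and the cold groups did. Of its 15 genes, 7 rose and 0 fell with cold in WT, beside 9.39% of all genes called higher and 7.98% lower. Among the 7 were Cd68 (a lysosomal glycoprotein), Cd163 (a haemoglobin scavenger receptor) and C1qb (a complement subunit). In KO 4 rose, namely Cd68, Mrc1, Itgam and Cd163, beside 8.34% of all genes. Csf1r, the receptor for macrophage colony-stimulating factor, fell in KO, beside 10.8% of all genes. The median difference over the list with cold was 0.70 in WT and -0.11 in KO. With an array left out, 3 to 7 rose in WT and 3 to 4 in KO. Between the genotypes limma called 0 of the 15 at room temperature, beside 0.550% of all genes. There 11 had an unadjusted p under 0.05, beside 11.4% of all genes, and the list median was 0.71. Higher in KO were Cd68 and Mrc1 in the cold, beside 0.361% of all genes, and Cd68, Mrc1 and Itgam over both temperatures, beside 0.794%. With an array left out the counts were 0 to 2 at room temperature, 0 to 3 in the cold and 1 to 4 over both. No marker of the list read 0 on this scale. The part of these markers in the ligand differences was not tested.

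Of the inflammatory CC ligands, Ccl3, Ccl4 and Ccl5 were not called in any of the 7 comparisons. Ccl5, a T cell product that attracts T cells and monocytes, read 5.08, 5.43 and 6.11 in WT at room temperature, 6.32, 7.79 and 5.42 in KO at room temperature, 6.0, 7.50 and 6.14 in the WT cold and 5.34, 5.67 and 6.27 in the KO cold. All pairs of groups overlapped. Its cold difference was 1.01 in WT and -0.75 in KO, and the interaction (the cold difference in KO minus that in WT) was -1.76 ± 0.77 with an adjusted p of 0.454. Ccl3, an early macrophage chemokine, read 3.53, 3.22 and 3.27 in WT at room temperature and 4.27, 5.84 and 4.39 in KO, with every KO array above every WT array. In the cold it read 3.90, 4.22 and 4.55 in WT and 3.07, 4.64 and 7.23 in KO, a span of 4.16 within the last group. Ccl4 stayed between 2.50 and 3.59 on all 12 arrays.

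**Figure D2:**
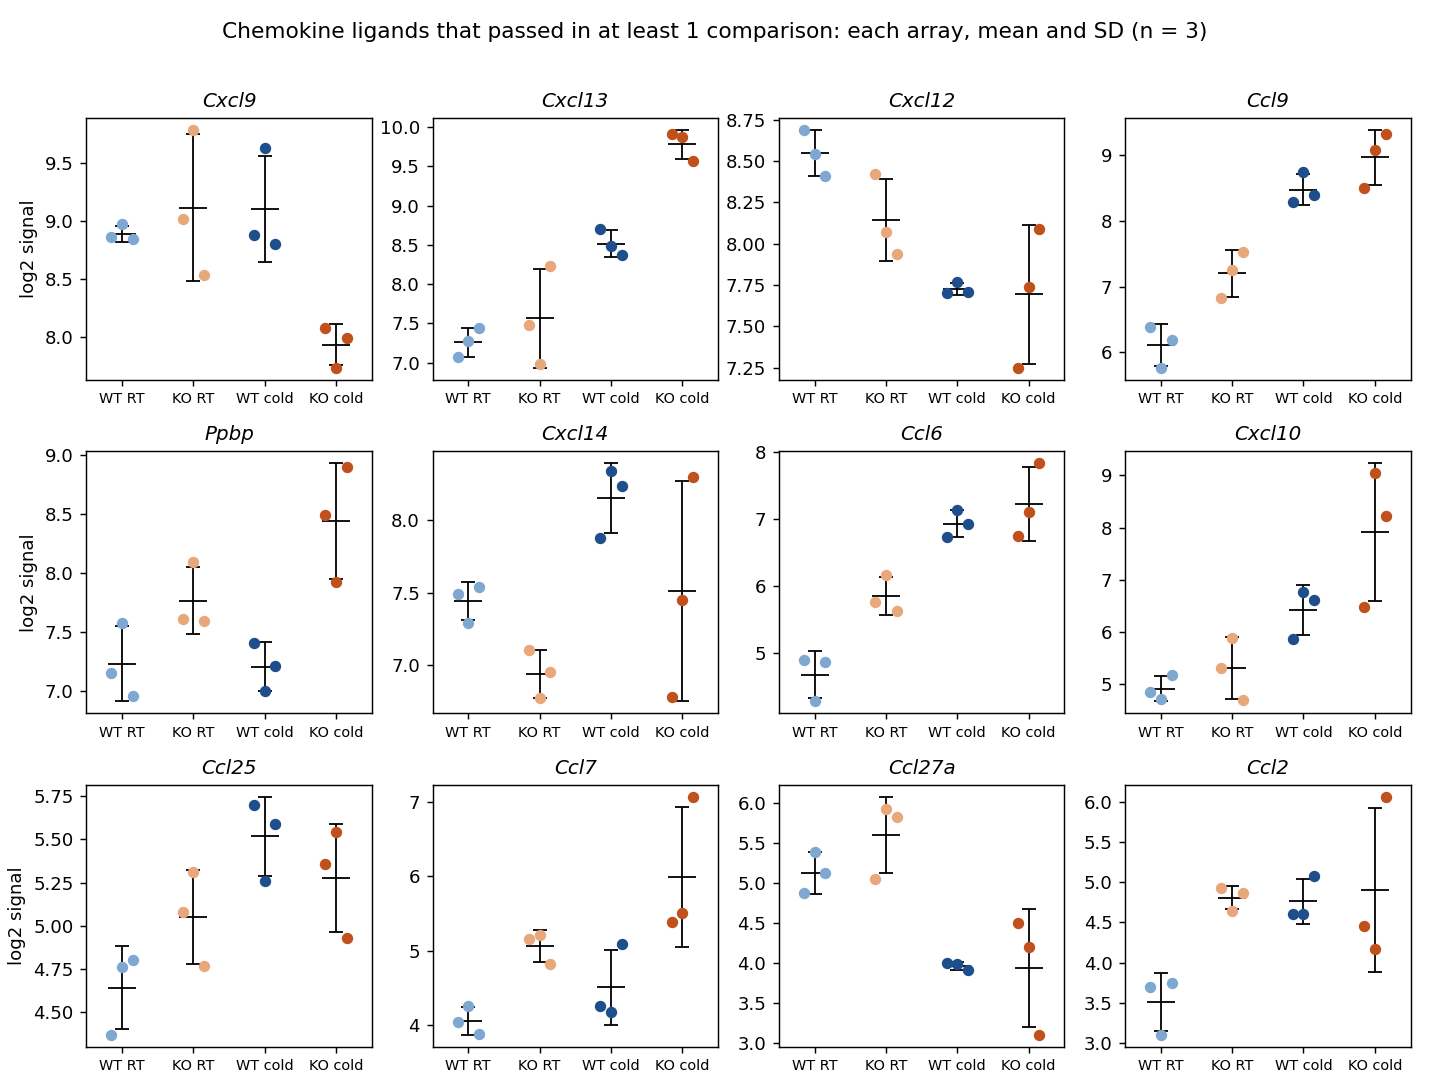
Log2 signal of the ligands that passed in at least 1 comparison, on each of the 12 arrays by group (RT, room temperature). Points are arrays and bars the group mean and SD, with 3 arrays per group and each panel on its own scale. Ccl6, Ccl9, Cxcl10, Cxcl13 and Ccl27a separate cold from room temperature in both genotypes, and Cxcl10 spans 6.47 to 9.05 among the KO cold arrays.

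Among Ccl2, Ccl7, Ccl8 and Ccl12, grouped here as monocyte-attracting CC ligands, 1 was called for cold and 1 for genotype. Ccl2, the principal monocyte chemokine, read 3.70, 3.10 and 3.74 in WT at room temperature and 4.60, 4.60 and 5.08 in the WT cold, without overlap. It rose by 1.25 ± 0.39 (adjusted p = 0.0429), a call lost in 9 of the 12 fits that left out an array (adjusted p 0.0544 to 0.151) and kept in the 3 fits without a KO cold array. In KO it read 4.92, 4.64 and 4.86 at room temperature and 4.46, 4.17 and 6.06 in the cold, and the cold difference was 0.09 (adjusted p = 0.916). With the skeletal muscle list as a covariate the WT difference was 1.15 with an adjusted p of 0.108.

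At room temperature Ccl2 was higher on all 3 KO arrays than on all 3 WT arrays, by 1.29 ± 0.39, and did not pass (adjusted p = 0.192). Without KO cold replicate 3, an array outside that comparison, the adjusted p was 0.0165. Ccl7, which lies next to Ccl2 and attracts monocytes, read 4.05, 4.26 and 3.88 in WT and 5.16, 5.22 and 4.82 in KO at room temperature. In the cold it read 4.26, 4.18 and 5.09 in WT and 5.39, 5.51 and 7.07 in KO. Every KO array was above every WT array at the same temperature. Over both temperatures Ccl7 was higher in KO by 1.24 ± 0.27 (adjusted p = 0.0394), and 8 of the 12 fits that left out an array lost the call (0.0605 to 0.107), the exceptions being those without WT cold replicate 3 or any of the KO cold arrays. The separate differences were 1.01 at room temperature (adjusted p = 0.329) and 1.48 ± 0.38 in the cold (adjusted p = 0.095). Ccl8 lay between 3.18 and 5.11 and Ccl12 between 1.36 and 2.23, and neither was called.

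The interferon-induced CXC ligands moved in opposite directions in KO mice. Cxcl10 rose with cold and Cxcl9 fell, although the genes lie close together on chromosome 5 with Art3 between them. Their upstream windows are shown for that contrast. Capitals mark TATAAA, the NF-kappaB consensus and the core of the interferon-stimulated element, which is GAAA, any 2 bases and GAAA.
Cxcl10, chr5:92348890-92349139, minus strand: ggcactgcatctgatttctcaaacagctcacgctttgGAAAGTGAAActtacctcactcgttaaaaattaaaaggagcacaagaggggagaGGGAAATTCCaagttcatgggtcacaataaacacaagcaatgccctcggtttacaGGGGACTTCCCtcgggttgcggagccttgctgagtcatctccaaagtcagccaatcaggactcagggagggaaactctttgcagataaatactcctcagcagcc
Cxcl9, chr5:92328080-92328329, minus strand: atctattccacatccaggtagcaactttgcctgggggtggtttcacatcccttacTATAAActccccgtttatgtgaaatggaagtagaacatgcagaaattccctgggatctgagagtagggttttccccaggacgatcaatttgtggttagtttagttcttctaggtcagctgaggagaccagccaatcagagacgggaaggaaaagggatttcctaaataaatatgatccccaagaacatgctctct
The Cxcl10 window held the interferon-stimulated core from base -213 to -204 and NF-kappaB matches from -159 to -150 and within -104 to -94. In the Cxcl9 window the single match was TATAAA from -195 to -190.

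Cxcl10 read 4.84, 4.71 and 5.18 in WT at room temperature, 5.31, 5.89 and 4.70 in KO at room temperature, 5.87, 6.77 and 6.61 in the WT cold and 6.47, 9.05 and 8.23 in the KO cold. All cold arrays were above the room temperature arrays of the same genotype. It rose in KO by 2.62 ± 0.52, or 6.14-fold (adjusted p = 0.00381), and over both genotypes by 2.06 ± 0.37 (adjusted p = 0.00105). The KO difference was 3.34 without KO cold replicate 1, the lowest of its group, and 2.05 without KO cold replicate 2, the highest, and stayed called in all 12 fits that left out an array. In WT the difference was 1.5 ± 0.52 and did not pass (adjusted p = 0.0692), although the adjusted p was 0.00759 without KO cold replicate 1 and 0.032 without KO cold replicate 2. The genotypes overlapped in the cold, where KO was 1.5 above WT with an adjusted p of 0.212. Without KO cold replicate 1 that difference was 2.23 and the adjusted p 0.0196.

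Cxcl9 read 8.86, 8.97 and 8.84 in WT at room temperature, 9.02, 9.79 and 8.53 in KO at room temperature, 8.88, 9.63 and 8.80 in the WT cold and 8.07, 7.73 and 7.99 in the KO cold. The KO cold arrays were the lowest of the 12. The fall with cold in KO was 1.19 on the log2 scale (SE 0.29, 2.28-fold lower, adjusted p = 0.0111), whereas the WT difference was 0.21 (adjusted p = 0.704). KO lay below WT in the cold by -1.17 ± 0.29, with an adjusted p of 0.0823 that became 0.0372 without KO room temperature replicate 2. The interaction was -1.40 ± 0.40, with the smallest adjusted p of any ligand at 0.282, so the cold responses of the genotypes were not shown to differ. Cxcl11 lay between 2.00 and 3.36 on all arrays and was not called.

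Cxcl9 is made on interferon-gamma from T cells and natural killer cells, and markers of those cells were read beside it. The mean of 11 T and natural killer cell markers was 2.80 to 3.21 in WT at room temperature, 3.24 to 4.56 in KO at room temperature, 3.22 to 3.97 in the WT cold and 3.01 to 3.33 in the KO cold. KO room temperature replicate 2 and WT cold replicate 2, which had the highest Cxcl9 and Ccl5 of their groups, also had the highest means of this list in their groups. Of the 11 markers, Cd8a rose with cold in WT and fell in KO, where Ncr1, a natural killer cell receptor, fell as well. Of all genes, 17.4% were called with cold in WT and 19.2% in KO. At room temperature Cd8a was higher in KO than in WT by 0.99 (adjusted p = 0.0208). That call was lost without WT room temperature replicate 1 or 2 or KO room temperature replicate 1 or 2 (0.0698 to 0.1), the rise in WT without WT room temperature replicate 1 or WT cold replicate 1, and the fall in KO without KO room temperature replicate 2. Both markers are dim. Their part in the Cxcl9 and Ccl5 values was not tested.

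Of 14 measured interferon response genes, 2 rose with cold in WT, namely Ifit1 by 1.39 (adjusted p = 0.00545) and Oasl2 by 1.01 (adjusted p = 0.00654), which encode antiviral proteins. In KO 0 rose and 2 fell, the guanylate-binding protein gene Gbp3 by 1.59 (adjusted p = 0.00471) and the antiviral gene Rsad2 by 1.07 (adjusted p = 0.0105). With 2 of 14 called in each genotype, beside 17.4% of all genes in WT and 19.2% in KO, the shares were near the background. The list's median difference was 0.48 in WT and -0.21 in KO. By limma 0 of the 14 passed in the interaction, with 8 at an unadjusted p under 0.05, beside 10.5% of all genes. The list's median interaction was -0.88, beside -0.01 over all genes. Between the genotypes 0 passed at room temperature and 0 in the cold, beside 0.550% and 0.911% of all genes. At an unadjusted p under 0.05 there were 4 and 2. At room temperature 11.4% of all genes lay under that value, and for the cold that share is not given here.

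The homing ligands include Cxcl13, which draws B cells through Cxcr5, and Cxcl12, which retains Cxcr4-bearing cells and is made by stromal cells. These moved in opposite directions with cold. Their upstream windows follow, with TATAAA in capitals for Cxcl13 and CGTCA, the reverse strand of the short cAMP site TGACG, in capitals for Cxcl12.
Cxcl13, chr5:95956689-95956938, plus strand: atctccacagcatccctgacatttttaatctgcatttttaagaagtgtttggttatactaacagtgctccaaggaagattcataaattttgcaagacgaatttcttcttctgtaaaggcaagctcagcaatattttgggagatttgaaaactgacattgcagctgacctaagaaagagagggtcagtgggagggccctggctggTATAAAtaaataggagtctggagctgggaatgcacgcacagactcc
Cxcl12, chr6:117168285-117168534, plus strand: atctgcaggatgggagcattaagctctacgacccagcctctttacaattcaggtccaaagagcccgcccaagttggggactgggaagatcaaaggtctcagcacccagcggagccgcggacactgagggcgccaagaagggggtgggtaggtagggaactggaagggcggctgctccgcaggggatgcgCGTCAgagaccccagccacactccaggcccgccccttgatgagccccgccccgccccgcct
The TATAAA of Cxcl13 lies from base -46 to -41. Of the 36 ligands, 25 had a window in the RefSeq table. TATAAA occurred in 10 of them, beside 12.4% of all 32851 windows, on either strand. The NF-kappaB consensus occurred in 7 (Ccl1, Ccl9, Ccl20, Cxcl1, Cxcl2, Cxcl3 and Cxcl10), beside 7.25% of all windows. The interferon-stimulated core occurred in 2 (Cxcl10 and Cxcl14), beside 2.98%, and TGACG in 3, beside 17.8%. The whole cAMP element TGACGTCA occurred in 0 of the 25 and in 1.55% of all windows. Some of the windows belong to neighbouring genes of common origin, so they are not independent.

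Cxcl13 read 7.07, 7.27 and 7.44 in WT at room temperature, 7.48, 6.98 and 8.23 in KO at room temperature, 8.70, 8.48 and 8.37 in the WT cold and 9.91, 9.87 and 9.57 in the KO cold. The cold arrays were above the room temperature arrays of both genotypes. Cold raised it by 1.25 ± 0.25 in WT, or 2.38-fold (adjusted p = 0.0047), and by 2.22 ± 0.25 in KO, or 4.65-fold (adjusted p = 0.000108). In the cold every KO array was above every WT array, a difference of 1.27 ± 0.25, or 2.4-fold (adjusted p = 0.0396). This genotype call was lost in 10 of the 12 fits that left out an array (0.0553 to 0.146) and held only without KO room temperature replicate 2 or 3. It was also lost when the arrays were centred on their medians (adjusted p = 0.054). The interaction was 0.97 ± 0.36 with an adjusted p of 0.382. B cells carry the receptor of Cxcl13, and a list of 7 B cell markers had a mean of 2.52 to 3.04 over all 12 arrays. Of these, Pax5 rose with cold in KO, where 19.2% of all genes were called. In WT 0 passed by limma (1 at an unadjusted p under 0.05), beside 17.4% of all genes called. Cd79a was lower in the cold over both genotypes, and Jchain was lower in KO in the cold and over both temperatures. Each of these calls except that of Jchain over both temperatures was lost in 2 to 4 of the 12 fits that left out an array. Pax5 and Cd79a lay under 4 on all 12 arrays, near the background, and no change is read from them. A list of 8 lymph node stroma and lymphatic markers had a mean of 3.13 to 3.30 in WT at room temperature and 3.21 to 3.54 in the WT cold, with overlap, and of 3.23 to 3.29 and 3.61 to 3.68 in KO, without. The list's median cold difference was -0.07 in WT and 0.29 in KO. In WT 2 of the 8 were called higher and 0 lower, and in KO 3 higher and 0 lower. Beside these, 9.39% of all genes were called higher in WT and 8.34% in KO. Prox1, Mmrn1, Madcam1, Cr2 and Glycam1 had negative differences in WT, and Mmrn1 and Cr2 in KO, without a call. The lymphatic receptor genes Lyve1 and Flt4 rose with cold in WT by 1.84 (adjusted p = 0.000181) and 0.58 (0.0139). In KO they rose by 1.76 (adjusted p = 0.000205) and 0.92 (0.000818), and Pdpn, a lymphatic and stromal glycoprotein, by 0.59 (0.0317). The Flt4 call in WT was lost without WT room temperature replicate 2 or WT cold replicate 2, and the Pdpn call without KO room temperature replicate 2 or 3 or KO cold replicate 3. The part of these cells in the Cxcl13 values was not tested.

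Cxcl12 read 8.69, 8.54 and 8.41 in WT at room temperature and 7.70, 7.77 and 7.71 in the WT cold, without overlap, and fell by 0.82 on the log2 scale (SE 0.20, adjusted p = 0.0118). In KO it read 8.42, 8.07 and 7.94 at room temperature and 7.25, 7.74 and 8.09 in the cold, with overlap and a difference of -0.45 ± 0.20 (adjusted p = 0.146), which was -0.65 (adjusted p = 0.03) without KO cold replicate 3. Over both genotypes it fell by 0.64 (adjusted p = 0.00403). A list of 9 fibroblast and adipose stromal markers, cells that make Cxcl12, had a mean of 7.56 to 7.61 in WT at room temperature and 7.64 to 7.79 in the WT cold, with 1 of 9 higher (Cd34) and 0 lower. The mean of 7 mural cell markers was 8.11 to 8.41 in WT at room temperature and 7.76 to 7.82 in the WT cold, and 8.11 to 8.15 and 7.48 to 7.71 in KO. Of these 7, Pdgfrb, Cspg4 and Myh11 fell with cold in both genotypes, by 0.64, 1.57 and 0.90 in WT (adjusted p = 0.0155, 7.71e-05 and 0.00115). The Pdgfrb call in WT was lost without WT room temperature replicate 1 or WT cold replicate 1 or 2. Of 10 endothelial markers Pecam1 rose and Tie1 and Vwf fell in WT, and in KO 2 rose and 4 fell. With an array left out, 1 to 3 of them fell in WT and 3 to 4 in KO. Of all genes, 9.39% were called higher and 7.98% lower with cold in WT, and 8.34% and 10.8% in KO. The part of these cells in the Cxcl12 fall was not tested. Cxcl14, a constitutive chemokine of epithelial and adipose tissue, read 7.49, 7.29 and 7.54 in WT at room temperature, 7.88, 8.34 and 8.24 in the WT cold, 7.10, 6.77 and 6.95 in KO at room temperature and 6.78, 7.45 and 8.30 in the KO cold. The WT groups did not overlap while the KO groups did. It rose over both genotypes by 0.64 ± 0.21 (adjusted p = 0.035), and 8 of the 12 fits that left out an array lost the call (0.053 to 0.0808), all but those without KO room temperature replicate 1, WT cold replicate 1, or KO cold replicate 1 or 3. At room temperature every KO array was below every WT array, a difference of -0.50 that did not pass. Over both temperatures the genotype difference of -0.57 also did not pass, and was -0.76 (adjusted p = 0.0278) without KO cold replicate 3. The cold differences were 0.71 in WT and 0.57 in KO, neither called, and both passed without KO cold replicate 1 (adjusted p = 0.0335 and 0.0176).

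Ccl25, a thymus and gut homing ligand of Ccr9, read 4.37, 4.76 and 4.80 in WT at room temperature and 5.70, 5.26 and 5.59 in the WT cold, and rose by 0.87 ± 0.20 (adjusted p = 0.0101). In KO it read 5.08, 5.31 and 4.77 at room temperature and 5.36, 5.54 and 4.93 in the cold, with overlap and a difference of 0.22 (adjusted p = 0.524). The interaction of -0.65 had an adjusted p of 0.454. Ccl27a, a skin homing ligand of Ccr10, read 4.87, 5.39 and 5.12 in WT at room temperature and 4.00, 3.99 and 3.91 in the WT cold. In KO it read 5.05, 5.92 and 5.83 at room temperature and 4.50, 4.2 and 3.10 in the cold. It is uncertain, because its values are identical to those of 2 other probe sets that carry several symbols, and its own second probe set, at a mean of 2.55, gave -0.46 in WT (adjusted p = 0.342) and 0.28 in KO (adjusted p = 0.593). The brighter one fell by 1.16 in WT (adjusted p = 0.0253) and by 1.67 in KO (adjusted p = 0.00302). The WT call was lost without WT room temperature replicate 2 or 3 or any of the WT cold arrays (0.0614 to 0.0921). Ccl28 and Cxcl17 were dim, below 4 on every array, and were not called.

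Platelet and neutrophil-attracting CXC ligands were read together because Ppbp and Pf4, stored in platelet granules, lie side by side within the chromosome 5 cluster that also holds Cxcl1, Cxcl2, Cxcl3, Cxcl5 and Cxcl15. Ppbp, the precursor of a neutrophil-attracting peptide, read 7.15, 7.58 and 6.96 in WT and 7.61, 8.09 and 7.59 in KO at room temperature. In the cold it read 7.41, 7.0 and 7.21 in WT and 8.49, 7.92 and 8.90 in KO. Every KO array was above every WT array at the same temperature. It was higher in KO in the cold by 1.23 ± 0.25 (adjusted p = 0.0396) and over both temperatures by 0.88 ± 0.17 (adjusted p = 0.0279). The cold call was lost in 8 of the 12 fits that left out an array (0.0523 to 0.161) and held without WT room temperature replicate 2 or 3, KO room temperature replicate 2 or KO cold replicate 2. The averaged call was lost without WT room temperature replicate 1 or 3, KO room temperature replicate 2 or any WT cold array (0.0536 to 0.0757). With the mean of 13 neutrophil markers as a covariate the difference in the cold was 1.01 (adjusted p = 0.101). The averaged call was lost with that covariate too (adjusted p = 0.0867).

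Pf4, platelet factor 4, read 5.29, 4.79 and 4.92 in WT and 5.44, 5.24 and 4.96 in KO at room temperature. In the WT cold it read 5.04, 5.0 and 5.29 and in the KO cold 5.36, 5.93 and 6.71. These KO arrays were above the WT arrays, by 0.89, and did not pass (adjusted p = 0.163), while without KO cold replicate 1 the difference was 1.21 and the adjusted p 0.0379. The cold difference in KO was 0.79 (adjusted p = 0.0687), and 1.11 (0.00845) without that array. The platelet and megakaryocyte list of 6 genes, which includes Ppbp and Pf4, had a mean of 3.97 to 4.15 in the WT cold and 4.15 to 4.61 in the KO cold, and Ppbp was its only member called between the genotypes. The part of platelet content was not tested.

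The neutrophil-attracting ligands other than Ppbp were not called in any comparison. Cxcl1 read 1.95, 1.73 and 1.90 in WT at room temperature, 2.41, 3.32 and 2.41 in KO at room temperature, 2.69, 2.52 and 2.67 in the WT cold and 2.35, 3.75 and 4.40 in the KO cold. Without KO cold replicate 1 its genotype difference in the cold was 1.45 (adjusted p = 0.03) and its cold difference in KO 1.36 (adjusted p = 0.0052). Cxcl2 read 3.24, 3.03 and 3.57 in WT at room temperature, 3.30, 2.69 and 2.41 in KO at room temperature, 3.43, 2.96 and 4.44 in the WT cold and 3.41, 3.48 and 6.07 in the KO cold, where the third replicate stood apart. Its cold difference in KO was 1.52 ± 0.60 (adjusted p = 0.102). Cxcl3, Cxcl5 and Cxcl15 stayed at or below 2.30 on every array.

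The remaining ligands gave no calls. Ccl11, eotaxin, which attracts eosinophils, read 8.35, 8.74 and 8.43 in WT at room temperature, 8.85, 8.37 and 8.25 in KO at room temperature, 8.37, 8.81 and 8.70 in the WT cold and 8.96, 8.87 and 9.26 in the KO cold. The KO cold arrays were above all others, and the cold difference in KO was 0.54 (adjusted p = 0.0678). It passed without KO room temperature replicate 1, at 0.72 (adjusted p = 0.0218). Cxcl16, a membrane-tethered ligand of Cxcr6, read 5.81, 5.67 and 5.68 in WT and 6.15, 6.39 and 6.30 in KO at room temperature, without overlap, a difference of 0.56 ± 0.15 (adjusted p = 0.151). In the WT cold it read 5.82, 6.19 and 5.91, overlapping the KO cold values of 6.20, 5.94 and 6.46. Cx3cl1, the tethered ligand of Cx3cr1, lay between 5.23 and 6.72 on the 12 arrays. Ccl24 lay between 3.11 and 4.25, and Ccl1, Ccl17, Ccl20, Ccl22, Ccl26 and Xcl1 were below 4 throughout.

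Between the genotypes the calls were few. At room temperature limma called 0 of 36 ligands, beside 0.550% of all genes, with 7 ligands at an unadjusted p under 0.05, beside 11.4% of all genes. The arrays of KO and WT did not overlap for 10 ligands, beside 17.0% of all genes. Of these, 8 were higher in KO (Ccl2, Ccl3, Ccl6, Ccl7, Ccl9, Cxcl1, Cxcl16 and Ppbp) and 2 lower (Cxcl14 and Cxcl15). In the cold 2 ligands were called, both higher in KO (Cxcl13 and Ppbp), beside 0.911% of all genes called and 0.361% called higher. The groups in the cold did not overlap for 9 ligands, 6 higher and 3 lower, beside 20.6% of all genes. Averaged over the temperatures 3 were called higher (Ccl7, Ccl9 and Ppbp), beside 1.63% of all genes called and 0.794% called higher. The median difference over the 36 ligands was 0.08 at room temperature, 0.16 in the cold and 0.11 averaged, beside 0.01, 0.01 and 0.00 over all genes. Without KO cold replicate 1 the count over both temperatures was 7, and in the cold it was 3 with neither Cxcl13 nor Ppbp among them. The cold count was 0 without WT room temperature replicate 1, KO room temperature replicate 1, any of the WT cold arrays or KO cold replicate 3. It was 1 without WT room temperature replicate 2 or 3, KO room temperature replicate 3 or KO cold replicate 2. The count over both temperatures was 0 without WT room temperature replicate 1 or 3 or WT cold replicate 1 or 2, and 1 without WT room temperature replicate 2, KO room temperature replicate 2 or WT cold replicate 3. At room temperature it was 1 without KO cold replicate 1 and 2 without KO cold replicate 3.

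**Figure D3:**
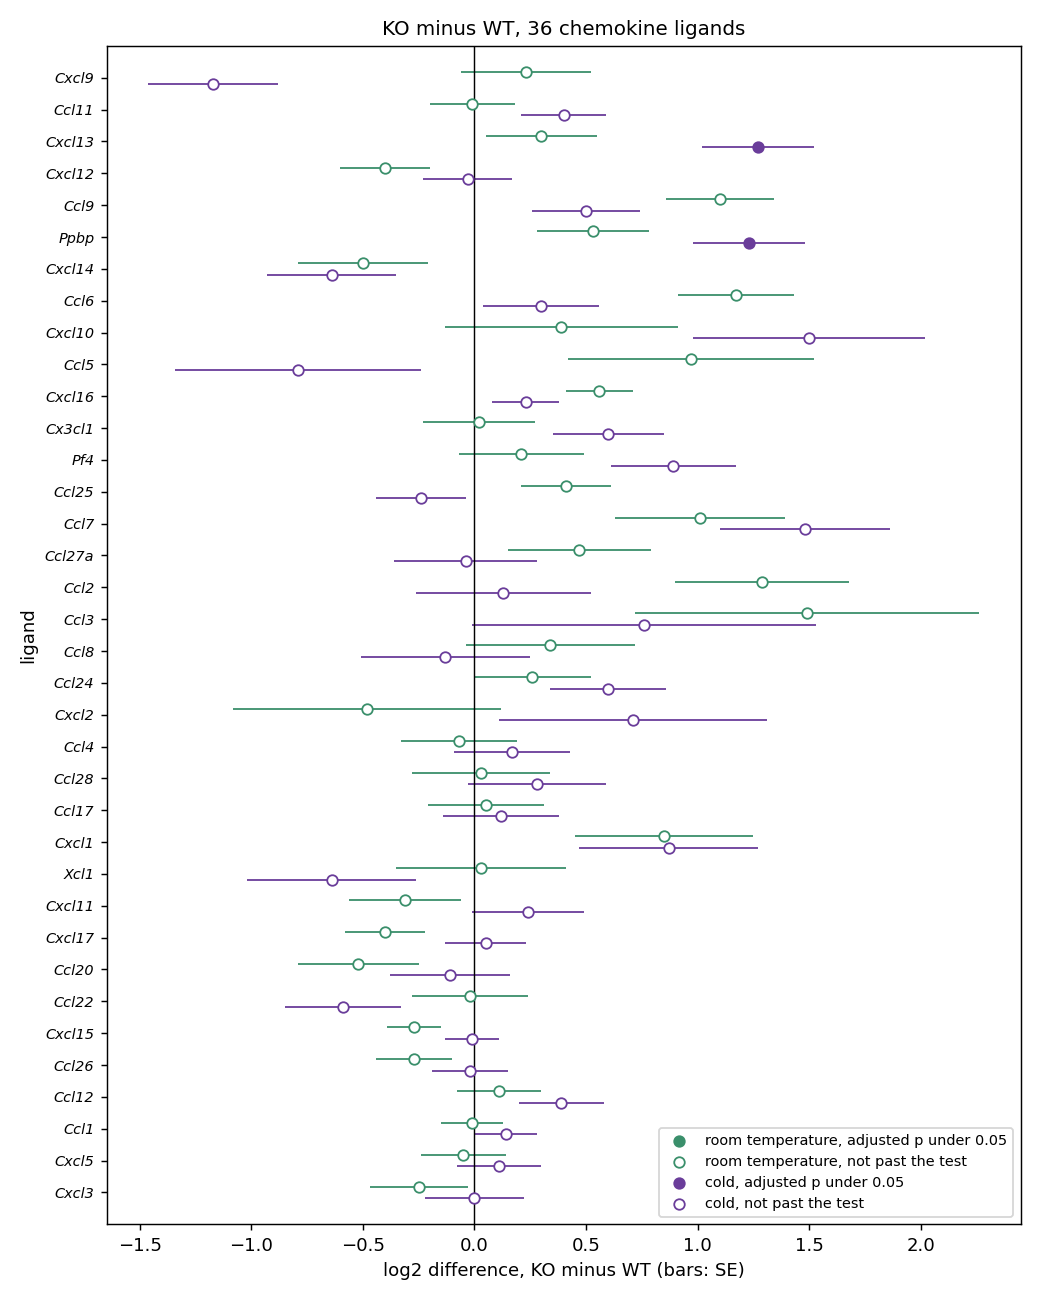
Log2 difference, KO minus WT, of each chemokine ligand at room temperature and in the cold. Points are differences from the fit with 3 arrays per group, bars are standard errors and filled points passed at an adjusted p under 0.05. Cxcl13 (1.27) and Ppbp (1.23) passed in the cold, and 0 ligands passed at room temperature.

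The interaction asks whether the cold response differed between the genotypes. By limma 0 of 36 ligands passed, beside 0.0271% of all genes, with 5 at an unadjusted p under 0.05 (10.5% of all genes) and a median over the ligands of 0.25. A ligand called in 1 genotype and not in the other, such as Ccl2, Ccl25, Cxcl9, Cxcl10 or Cxcl12, was therefore not shown to respond differently.

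Single arrays stood apart for several ligands. KO cold replicate 3 had the highest signal of the 12 arrays for 17 of the 36 ligands, or 47.2%, beside 9.19% of all genes. KO room temperature replicate 2 followed with 5 ligands. A span of at least 2 between the arrays of a group occurred for Ccl3, Cxcl10, Cxcl2 and Cxcl1 in the KO cold and for Ccl5 in KO at room temperature, and for 0 ligands in either WT group. The mean of 13 neutrophil markers was 3.94 on KO cold replicate 3 and 2.02 to 2.65 on the other 11 arrays. There S100a8, a granulocyte calcium-binding protein, read 3.89 against 1.18 to 1.79 elsewhere, and Retnlg, a neutrophil-secreted protein, read 5.95 against 1.46 to 3.88. Its NF-kappaB list mean of 5.28 and its macrophage list mean of 6.73 were also the highest of the 12. The part of these cells in the ligand values was not tested. The cold calls of Ccl6, Ccl9, Cxcl13, Cxcl10 and Cxcl9 in KO were kept without that array.

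**Figure D4:**
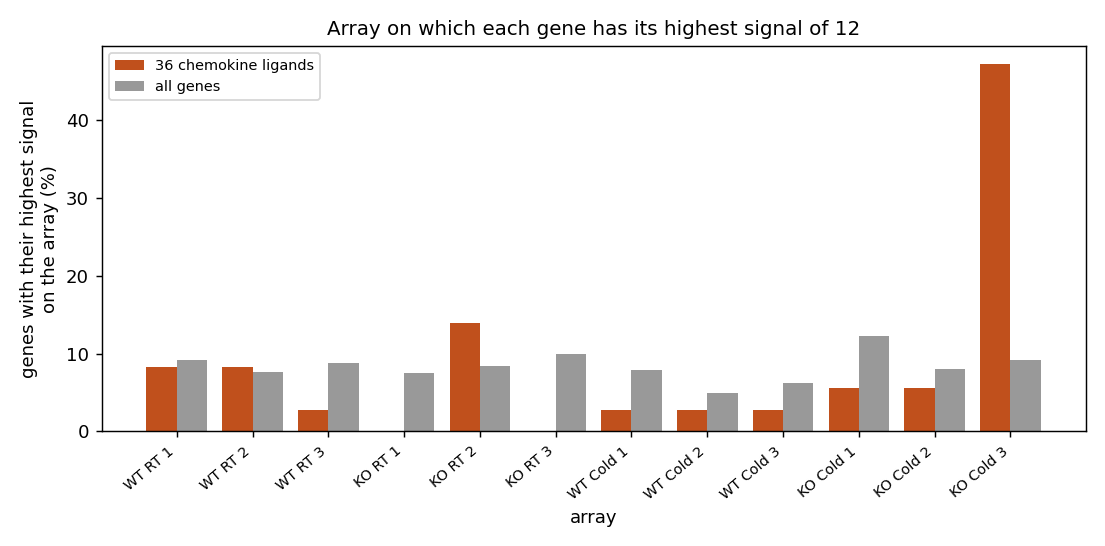
Share of genes with their highest signal on each of the 12 arrays, in percent, for the 36 chemokine ligands and for all 22180 genes (RT, room temperature). KO cold replicate 3 holds 47.2% of the ligands and 9.19% of all genes.

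The receptors that read these ligands were mostly dim and few passed. Of 18 measured receptors, beside 9.39% of all genes called higher and 7.98% lower with cold in WT, 0 rose and 1 fell. That was Cx3cr1, the receptor of Cx3cl1 on monocytes and resident macrophages, which read 4.62, 4.69 and 3.82 at room temperature and 2.79, 3.24 and 3.72 in the cold and fell by 1.13 (adjusted p = 0.0291). The call was lost without WT room temperature replicate 1 or 2 or WT cold replicate 1 or 2 (0.0775 to 0.122). Over both genotypes it fell by 1.02 (adjusted p = 0.00451), and Ccr7, which guides cells to lymph nodes, was higher by 0.60 (adjusted p = 0.0378). The Ccr7 call was lost in 8 of the 12 fits that left out an array and kept without WT room temperature replicate 3, KO room temperature replicate 1, WT cold replicate 1 or KO cold replicate 2. Ccr4 passed as well, but it lay at 1.33 to 1.98 on all arrays, near the background, and no change is read from it. In the averaged comparison 2 of the 18 were thus called higher and 1 lower, beside 12.9% and 14.3% of all genes. Cxcr4, the signalling receptor of Cxcl12, read 5.04, 4.56 and 4.86 in WT and 5.51, 5.78 and 6.13 in KO at room temperature, a difference of 0.99 ± 0.22 that did not pass (adjusted p = 0.0756).

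Ackr3, an atypical receptor that binds Cxcl12 and removes it without G protein signalling, rose with cold. It read 8.01, 7.60 and 7.55 in WT at room temperature, 6.81, 6.19 and 6.41 in KO at room temperature, 9.26, 9.13 and 8.87 in the WT cold and 9.27, 8.99 and 8.79 in the KO cold. Cold arrays were above room temperature arrays throughout, and KO was below WT at room temperature but overlapped it in the cold. Ackr3 rose with cold by 1.37 ± 0.20 in WT (adjusted p = 0.000538) and by 2.55 ± 0.20 in KO (adjusted p = 1e-05). At room temperature it was lower in KO, by -1.25 ± 0.20 (adjusted p = 0.0141), a call lost without WT room temperature replicate 1 (0.0594) or KO room temperature replicate 2 (0.0696) or 3 (0.0637). The interaction of 1.18 ± 0.28 had an adjusted p of 0.204. Of the 4 atypical receptors it was the only one called in the 7 comparisons. Of all genes, 17.4% were called with cold in WT, 19.2% in KO and 0.550% between the genotypes at room temperature.

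Many ligand genes are targets of NF-kappaB, and 19 measured NF-kappaB feedback and early inflammatory genes were read beside them. With cold in WT 3 rose and 0 fell, and in KO 2 rose and 1 fell, so 3 of 19 were called in each, beside 17.4% of all genes in WT and 19.2% in KO, shares near the background. In WT they were Nfkbiz, a nuclear NF-kappaB cofactor, by 1.01 (adjusted p = 0.00485), Nfkb2, a subunit precursor, by 0.66 (adjusted p = 0.0185), and Tnfaip3, a feedback inhibitor, by 1.20 (adjusted p = 0.0463). In KO Nfkbiz rose by 0.70 (adjusted p = 0.0296) and Nfkb2 by 0.53 (adjusted p = 0.0496), while the inhibitor gene Nfkbie fell by 0.91 (adjusted p = 0.0268). Over both genotypes the adhesion molecule genes Icam1 and Vcam1 passed too, which made 5 higher and 0 lower. Of all genes, 27.2% were called in that averaged comparison, 12.9% higher and 14.3% lower. Between the genotypes 0 passed by limma at room temperature and 0 in the cold, beside 0.550% and 0.911% of all genes. At an unadjusted p under 0.05 there were 7 and 2. At room temperature 11.4% of all genes lay under that value, and for the cold that share is not given here. The list's median cold difference was 0.16 in WT and 0.07 in KO. Single arrays decided several of these calls. In WT, Tnfaip3 was lost in 7 of the 12 fits that left out an array (0.0533 to 0.149) and kept without KO room temperature replicate 2, WT cold replicate 1 or any KO cold array, and Nfkb2 was lost without WT room temperature replicate 3 or WT cold replicate 1 or 2 (0.0579 to 0.0715). In KO, Nfkbiz was lost without KO room temperature replicate 1 or 3 or KO cold replicate 2 or 3 (0.0921 to 0.103), Nfkbie without KO room temperature replicate 3 or KO cold replicate 1 or 3 (0.0747 to 0.111), and Nfkb2 in 10 of the 12 (0.058 to 0.175), all but those without WT room temperature replicate 3 or KO cold replicate 1. Vcam1 over both genotypes was lost in 7 of the 12 (0.051 to 0.0702) and kept without WT room temperature replicate 3, KO room temperature replicate 2 or 3, WT cold replicate 3 or KO cold replicate 1.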

How the data were processed

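RNA of brown fat was measured on 12 whole-transcript arrays, 3 per group. What the authors deposited is a log2 signal per probe set from RMA, per the submitters' processing notes, which also name oligo and limma without versions. RMA subtracts background, equalizes the distributions of the arrays and combines probes into probe sets. The genome build of the probe annotation is not given in the sources used here. Of 41345 probe sets, 23521 carried exactly 1 symbol and were used, and keeping the brightest per gene gave 22180 genes, dim ones included. The fit used limma 3.58.1 (R 4.3.3). In it 1 mean per group was fitted over all 12 arrays with eBayes, giving 7 two-sided comparisons, each adjusted by Benjamini-Hochberg over all genes, with the fit tested on simulated data. The members and gene lists were chosen with earlier results of these data known. Array values are given for ligands that passed a comparison, for ligands of a mean of at least 5 with the largest difference in their role group, and for those with a span of at least 2 within a group. Other genes are given by counts, and of the lists up to 4 called genes. Alternatives covered probe sets, dim genes, normalization, centring, spread, array weights, a replicate block, the arrays fitted, leaving out each array, and marker covariates.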

Additional observations from a re-analysis of the deposited data

How the results depend on the processing

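Over 23 other settings, the 26 ligand calls gave 582 values, of which 500 kept the call, 82 lost it and 0 reversed direction, and 17 of the 26 calls were kept throughout. The count of ligands called at room temperature between the genotypes (0) became 2 with genes of a mean signal of at least 5, 1 with the skeletal muscle covariate and 1 with the neutrophil covariate, and 0 to 2 when each array was left out in turn. In the cold the count (2) became 1 with arrays centred on their median, 1 with array weights, 1 with the 6 arrays alone and 0 to 3 with an array left out. Over both temperatures (3) it became 5 with a mean signal of at least 5 and 5 with array weights. It was 1 with the neutrophil covariate and 0 to 7 with an array left out. With that covariate Ccl7, Ccl9 and Ppbp all lost the averaged call (limma adjusted p = 0.0523, 0.117 and 0.0867). The 1 ligand called there was thus not among those 3. With cold in WT (7) the count was 12 with the 6 arrays alone and 5 to 10 with an array left out. In KO (6) it was 6 to 10 and over both genotypes (8) 7 to 13 with an array left out. The interaction count was 0 in every fit that left out an array. The cause of these changes was not tested.

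With the replicate number as a replicate block, the genotype counts were 0 in the cold and 0 over both temperatures. The numbers were not taken as pairs, since same-numbered arrays of different groups correlated at -0.537 to 0.451 in their deviations from the group means. With 3 arrays per group, low signals limit what can be seen, and only 14 of the 36 ligands had a mean signal of at least 5.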
